A study of Mus musculus with 15 samples.

Results

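Chemokine ligands are small secreted proteins that guide immune cells through tissue, and their transcripts were followed here in the skin of mice lacking OTULIN in keratinocytes. OTULIN is a deubiquitinase that takes apart linear ubiquitin chains. The members were all genes of the count table whose symbol begins with Ccl, Cxcl, Cx3cl or Xcl followed by a number. This name rule uses no measured value and gave 39 of the 55487 genes of the table. Of the 39 genes, 32 had at least 10 counts over the 15 libraries, 3 had fewer (*Ccl19*, *Cxcl17* and *Cxcl15*, with 9, 5 and 2 counts) and 4 were at 0 in all libraries (*Ccl21b*, *Ccl27b*, *Ccl26* and *Ccl21c*). The skin came from 3-week-old mice on a C57BL/6 background, all homozygous for *Otulin* alleles flanked by loxP sites (*Otulin* fl/fl). WT denotes littermates without Cre (5 libraries), and OTULIN E-KO denotes *Otulin* fl/fl *K14-Cre* mice, from which non-lesional skin (5 libraries) and lesional skin (5 libraries) were sequenced. The keratin 14 promoter drives Cre in keratinocytes, so that fibroblasts, endothelial cells and leukocytes of the same skin keep OTULIN. The labels call the genotype OTULIN-KO, and they do not say whether lesional and non-lesional skin came from the same animals. The question that these groups address is how the skin transcriptome differs with keratinocyte OTULIN loss, with and without a visible lesion.

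Chemokines are classed by the spacing of their first cysteines into CC, CXC, CX3C and XC ligands, and they act on G protein-coupled receptors on leukocytes. Some are made at a steady level in healthy tissue, such as CXCL12 and CXCL14 in skin, while others are inducible. NF-κB, the transcription factor pathway downstream of TNF receptor 1 that linear ubiquitin chains regulate, and interferon-activated factors are well-known inducers of the second kind. In inflamed skin, CXCR2 ligands attract neutrophils, CXCR3 ligands attract T cells and CCR2 ligands attract monocytes.

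The libraries were made with QuantSeq, a method that sequences a short tag at the 3′ end of each mRNA. Transcript length therefore does not enter the counts and levels can be compared between genes. Levels are given as CPM (the count as a share of its library, scaled so that each library sums alike) after TMM scaling of the library totals. The totals ran from 1962604 to 2567138 counts per library, of which 790 to 2620 were chemokine ligand counts, and a gene with 0 counts in a library may still lie at up to 1.13 to 1.54 CPM (3 counts on this scale). *Otulin* itself was at 12.3 to 28.4 CPM in WT libraries, 21.3 to 30.6 CPM in non-lesional libraries and 19.0 to 27.1 CPM in lesional libraries. The 3′ tags need not lie in the deleted exons and other skin cells keep the gene, so these values do not check the labels. Keratinocyte markers (*Krt5*, *Krt14*, *Krt1*, *Krt10*, *Krt15* and *Trp63*) summed to 7501 to 13090 CPM. Single markers of this list differed in lesional 2 and 11, with *Krt14* at 3121 and 5926 CPM (WT at most 1443 CPM), *Krt1* at 299.5 and 614.5 CPM (WT at most 253 CPM) and *Krt15* at 1161 and 636.5 CPM (WT at least 2480 CPM). All libraries also held fibroblast and skeletal muscle transcripts.

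Lesional libraries 2 and 11 stood apart from all others. They held the highest pair of values for 16 of the 32 members with at least 10 counts. The same was true of 1610 of 20292 genes (7.93%). *Cxcl1*, *Cxcl2*, *Cxcl3*, *Cxcl5*, *Ccl3* and *Ccl4* reached 10 counts only through these libraries. For *Cxcl1*, *Ccl17* and *Ccl28*, other libraries equalled at least 1 of the pair in raw counts. The pair was also picked after its values were seen, so the 16 of 32 is a description and not a test. The keratins of hyperplastic epidermis (*Krt6a*, *Krt6b*, *Krt16* and *Krt17*) summed to 12830 CPM in lesional 2 and 31830 CPM in lesional 11, with 658 to 2173 CPM in WT libraries. In lesional 5, 8 and 14 the same sums were 728, 785 and 970 CPM, within the WT range. *S100a8* and *S100a9*, made by neutrophils and by stressed keratinocytes, reached 1275 and 1698 CPM in lesional 2 and 2405 and 2704 CPM in lesional 11, with at most 3.85 CPM in WT libraries. The ligands with an unadjusted p under 0.05 between lesional and WT libraries are therefore also given without these libraries. In whole skin, fewer cells of a type and less RNA per cell cannot be told apart.

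**Figure D1:**
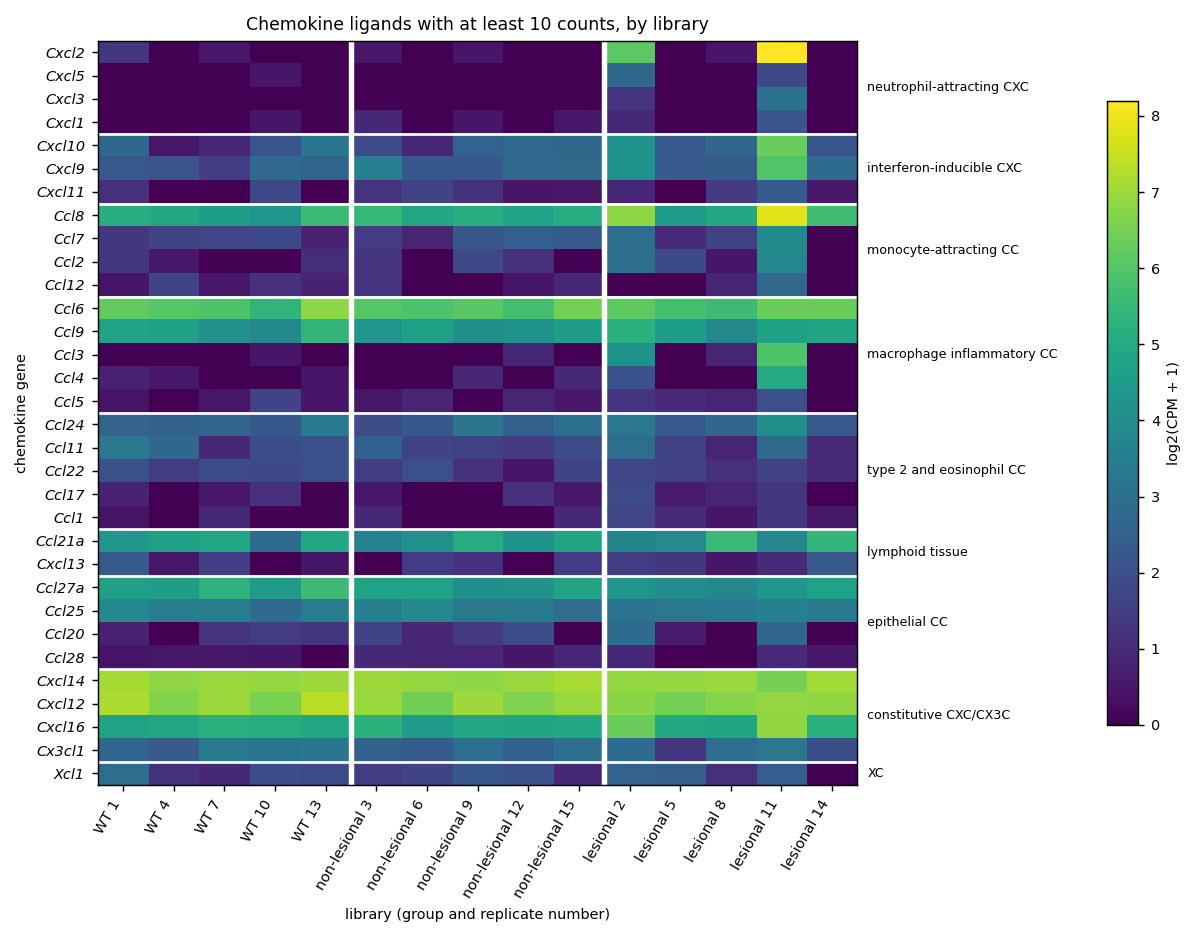
Level of the 32 chemokine ligands with at least 10 counts (rows, grouped by role) in each of the 15 libraries (columns), as log2(CPM + 1) after TMM scaling. *Cxcl12*, *Cxcl14*, *Ccl6*, *Ccl8*, *Cxcl16*, *Ccl27a*, *Ccl9* and *Ccl21a* are bright in most columns, *Cxcl2*, *Ccl3* and *Ccl4* are brighter in lesional 2 and lesional 11 than elsewhere, and for these 3 the columns of lesional 5, 8 and 14 look like the WT columns.

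Healthy skin was dominated by a few ligands. *Cxcl12*, the ligand of CXCR4 made by stromal cells, averaged 125 ± 30 CPM (SD, n = 5) in WT libraries. *Cxcl14*, an epithelial ligand of healthy skin, averaged 122.9 ± 8.33 CPM (SD, n = 5), and these levels differed by less than the spread of *Cxcl12*. *Ccl6*, a CC ligand of myeloid cells in rodents, followed at 69.5 ± 25.9 CPM (SD, n = 5), and its highest WT value (110.8 CPM) was below the lowest of *Cxcl14* (112.7 CPM). *Ccl27a*, *Ccl8* and *Cxcl16* came next at 31.2 ± 11.7, 30.8 ± 11.02 and 30.8 ± 4.10 CPM (SD, n = 5) and did not differ beyond their spread. *Ccl9* and *Ccl21a* averaged 24.5 ± 10.6 and 21.6 ± 9.44 CPM and *Ccl25* averaged 10.2 ± 2.66 CPM (SD, n = 5). The other 23 members with at least 10 counts averaged 7.01 CPM (*Cx3cl1*) or less. The neutrophil-attracting ligands were close to absent, with 5, 1, 0 and 1 counts of *Cxcl2*, *Cxcl5*, *Cxcl3* and *Cxcl1* in the 5 WT libraries together.

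Each pair of groups was compared with edgeR's quasi-likelihood test, and p-values were adjusted over all genes tested. Of the 39 members, 13 passed the filter on low counts in each comparison, and the inducible ligands that had counts in only 2 lesional libraries were among those removed. No member and no other gene passed an adjusted p of 0.05 in any of the 3 comparisons, so the share of genes called was 0% throughout. The smallest adjusted p over all genes was 0.723 between non-lesional and WT, 0.926 between lesional and WT and 0.973 between lesional and non-lesional libraries. The counts below therefore use an unadjusted p under 0.05, with the share of all genes that meets it in each comparison.

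No chemokine ligand passed the test between non-lesional and WT skin. At an unadjusted p under 0.05, 0 of the 13 tested members differed, where 3.16% of all 13021 genes met that criterion. The median log2 fold change of the 13 members was -0.08, beside -0.003 for all genes. Without WT replicate 1, 4 or 10, or non-lesional replicate 3 or 15, 1 member (*Ccl27a*) met the criterion. No member had values that did not overlap between the groups, which was so for 0.572% of 20292 genes. By the exact permutation test, run on all genes with at least 10 counts, only *Ccl28* had a two-sided p under 0.05 (exact p = 0.0317, adjusted p = 1), where 4.03% of genes did. *Ccl28*, a mucosal epithelial ligand, had 18 counts in all, with 0 or 1 in each WT library and 1 or 2 in each non-lesional library.

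Lesional skin held more of 4 members and less of another at that criterion. *Cxcl9*, *Cxcl10*, *Cxcl16* and *Ccl8* were higher and *Ccl27a* was lower than in WT libraries, so that 5 of 13 members met it, with a background of 4.81% of 12918 genes (3.24% higher and 1.56% lower). The median log2 fold change of the 13 members was 0.02, beside -0.003 for all genes. Without lesional 11 only *Ccl27a* met the criterion, and the same held without lesional 2 and 11. Without WT replicate 4 the count was 2 (*Ccl27a* and *Cxcl9*), and without WT replicate 7, WT replicate 10 or lesional 2 it was 3. None of the 32 members was without overlap between the groups, with a background of 0.68%. The exact permutation test gave p under 0.05 for 3 members (*Ccl27a*, *Ccl22* and *Ccl1*, all with adjusted p = 0.975), where 4.53% of genes had it.

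Between lesional and non-lesional libraries, *Cxcl10*, *Cxcl16* and *Ccl8* were higher at an unadjusted p under 0.05. These were 3 of 13 members, with a background of 4.22% of 12864 genes (2.89% higher). The median log2 fold change of the members was 0.27, beside 0.003 for all genes, and it was -0.11 without lesional 2 and 11. Without lesional 11, and without non-lesional replicate 6, no member met the criterion. Without lesional 2 only *Cxcl10* met it, and without lesional 8 the count was 5. No member was without overlap (background 0.636%), and none had an exact permutation p under 0.05 (background 4.34%). This comparison and the previous one share the lesional libraries.

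**Figure D2:**
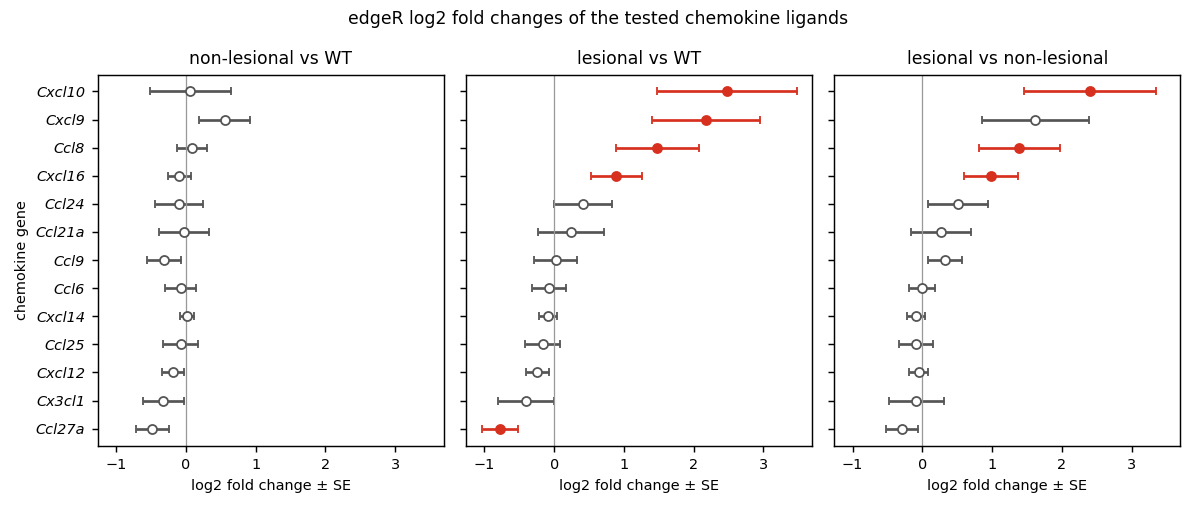
log2 fold change ± SE from edgeR for the 13 chemokine ligands that passed the filter, in the 3 comparisons; filled red points have an unadjusted p under 0.05 and no point has an adjusted p under 0.05. *Cxcl10*, *Ccl8* and *Cxcl16* lie to the right in both comparisons of lesional skin and *Ccl27a* lies to the left of 0 in all 3.

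The neutrophil-attracting CXC ligands bind CXCR2 and were at or near 0 counts in most libraries. *Cxcl2*, known as MIP-2, had 4, 0, 1, 0 and 0 counts in WT replicates 1, 4, 7, 10 and 13. It had 1, 0, 1, 0 and 0 counts in non-lesional replicates 3, 6, 9, 12 and 15. In lesional replicates 2, 5, 8, 11 and 14 it had 152, 0, 1, 585 and 0 counts. Lesional 2 and 11 thus stood at 68.7 and 293 CPM, with 1.54 CPM as the highest WT value, and the other 3 lesional libraries were indistinguishable from WT libraries. The highest value was 190 times the highest WT value, and the difference of the group means on the log2(CPM + 1) scale was 2.59 (two-sided exact permutation p = 0.365, adjusted p = 0.975). With the lower filter of at least 10 counts over all libraries, the log2 fold change of *Cxcl2* was 7.28 ± 2.43 (SE, edgeR unadjusted p = 0.0168, adjusted p = 0.943). *Cxcl2* reached this filter only through lesional 2 and 11, so this p-value is given as a description.

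*Cxcl3*, a close relative of *Cxcl2*, had 3 counts in lesional 2, 15 counts in lesional 11 and 0 counts in all other libraries. *Cxcl5*, an epithelial CXCR2 ligand, had 13 counts in lesional 2 and 5 in lesional 11, and 1 count (WT 10) elsewhere. *Cxcl1*, or KC, had 2 counts in lesional 2, 7 in lesional 11 and at most 2 in any other library. The order of the pair was reversed for *Cxcl5*, which was higher in lesional 2 (5.87 CPM) than in lesional 11 (2.50 CPM), while *Cxcl2*, *Cxcl3* and *Cxcl1* were higher in lesional 11. These counts of *Cxcl5* and *Cxcl3* gave an exact permutation p of 0.444 between lesional and WT libraries, and *Cxcl1* gave the same value. With the filter of at least 10 counts edgeR gave unadjusted p = 0.0158 for *Cxcl5*, 0.0356 for *Cxcl3* and 0.0561 for *Cxcl1* (adjusted p = 0.943 for each). *Cxcl5*, *Cxcl3* and *Cxcl1* reached that filter only through lesional 2 and 11, so these p-values are given as descriptions. *Cxcl15*, a lung ligand, had 2 counts in the series.

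**Figure D3:**
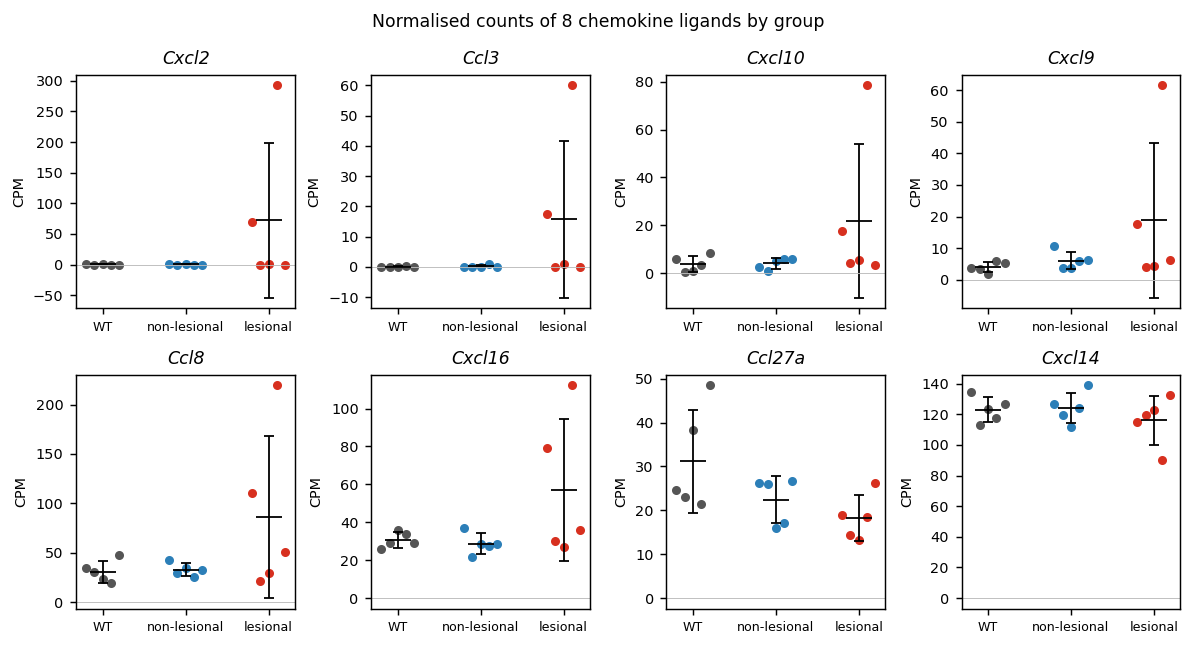
TMM-scaled CPM of 8 chemokine ligands in each library (points), with group mean and SD (bars, n = 5 per group; bars that reach below 0 reflect the SD and not measured values). In the first 6 panels the 2 highest lesional points (replicates 2 and 11) lie well above all WT points and the other 3 lie close to the WT points, while for *Ccl27a* 4 of 5 lesional points lie below all WT points and for *Cxcl14* the groups overlap.

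The 3 interferon-inducible CXC ligands bind CXCR3 on activated T cells and NK cells. *Cxcl10*, or IP-10, was at 5.77, 0.437, 0.900, 3.38 and 8.26 CPM in the WT libraries. It was at 2.66, 0.851, 4.95, 6.01 and 5.71 CPM in the non-lesional libraries. In lesional replicates 2, 5, 8, 11 and 14 it was at 17.6, 4.11, 5.60, 78.6 and 3.41 CPM. Lesional 2 and 11 lay above all WT and non-lesional libraries and the others lay inside the WT range. The log2 fold change against WT was 2.48 ± 0.997 (SE, edgeR unadjusted p = 0.0314, adjusted p = 0.926), and without lesional 11 it was 0.996 ± 0.671 (SE, edgeR unadjusted p = 0.163, adjusted p = 1). Without lesional 2 and 11 it was 0.18 ± 0.64 (SE, edgeR unadjusted p = 0.778, adjusted p = 0.999). Against non-lesional libraries it was 2.41 ± 0.94 (SE, edgeR unadjusted p = 0.028, adjusted p = 0.973), with 0.93 ± 0.54 without lesional 11 and 0.12 ± 0.50 without lesional 2 and 11. With the filter of at least 10 counts the unadjusted p of edgeR against WT was 0.0516 at a log2 fold change of 2.48. Exons of *Cxcl10* overlap those of *Art3* on the opposite strand, and no strand setting is listed for the counting.

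*Cxcl9*, or MIG, is induced mainly by interferon-γ. It was at 3.85, 3.49, 1.80, 5.92 and 5.26 CPM in the WT libraries and at 10.7, 3.83, 3.71, 6.01 and 6.15 CPM in the non-lesional libraries. In the lesional libraries it was at 17.6, 4.11, 4.396, 61.6 and 6.33 CPM. Lesional 2 and 11 were above the WT range, and so were lesional 14 and 3 non-lesional libraries by smaller margins. The log2 fold change of lesional against WT libraries was 2.18 ± 0.77 (SE, edgeR unadjusted p = 0.0158, adjusted p = 0.926), and that of non-lesional against WT libraries was 0.55 ± 0.37 (SE, edgeR unadjusted p = 0.15, adjusted p = 1). The second value was 0.26 ± 0.38 without non-lesional replicate 3 (SE, edgeR unadjusted p = 0.508, adjusted p = 0.999). Without lesional 2 and 11 the first value was 0.26 ± 0.43 (SE, edgeR unadjusted p = 0.561, adjusted p = 0.999). *Cxcl11*, which is annotated as a polymorphic pseudogene in the mouse reference, had 0 to 8 counts per library with the highest value in lesional 11 (4.01 CPM). Its assignment is uncertain, since *Gm2673* overlaps it on the opposite strand.

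The monocyte-attracting CC ligands CCL2, CCL7 and CCL12 act mainly through CCR2, while mouse CCL8, listed with them, is known as an agonist of CCR8. *Ccl8*, or MCP-2, was the most abundant of them in WT skin, at 34.2, 30.6, 23.0, 19.0 and 47.3 CPM. It was at 42.6, 29.4, 34.2, 25.6 and 32.5 CPM in the non-lesional libraries and at 110.7, 21.1, 29.6, 219 and 50.7 CPM in the lesional libraries. Lesional 2, 11 and 14 were above the WT range, the last by a small margin, and the groups overlapped. The log2 fold change was 1.48 ± 0.60 against WT (SE, edgeR unadjusted p = 0.0323, adjusted p = 0.926) and 1.39 ± 0.58 against non-lesional libraries (SE, edgeR unadjusted p = 0.0363, adjusted p = 0.973). Without lesional 11 the first was 0.78 ± 0.47 (SE, edgeR unadjusted p = 0.128, adjusted p = 1), and without lesional 2 and 11 it was 0.12 ± 0.31 (SE, edgeR unadjusted p = 0.72, adjusted p = 0.999). With the filter of at least 10 counts the unadjusted p of edgeR was 0.0529 against WT and 0.057 against non-lesional libraries, with log2 fold changes of 1.48 and 1.39. Without lesional 11 the value against non-lesional libraries was 0.69 ± 0.44 (SE), and without lesional 2 and 11 it was 0.04 ± 0.25 (SE).

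*Ccl2*, or MCP-1, the main CCR2 ligand, was much lower than *Ccl8*. It had 4, 1, 0, 0 and 3 counts in the WT libraries, 3, 0, 6, 3 and 0 in the non-lesional libraries and 15, 5, 1, 26 and 0 in the lesional libraries. Its mean was 0.621 ± 0.690 CPM in WT and 4.55 ± 5.45 CPM in lesional libraries (SD, n = 5). The exact permutation p of this difference was 0.19 (adjusted p = 0.975), and with the filter of at least 10 counts edgeR gave an unadjusted p of 0.0268 (adjusted p = 0.943). *Ccl7*, or MCP-3, lies next to *Ccl2* and had 15 and 28 counts in lesional 2 and 11, with 2 to 6 in WT libraries and 2, 5 and 0 in lesional 5, 8 and 14. In non-lesional libraries it had 4, 2, 9, 11 and 9 counts, and the last 3 of these libraries were above all WT libraries in CPM. *Ccl12*, or MCP-5, departed from the others, with 12 counts in lesional 11 and 0 counts in lesional 2.

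The macrophage inflammatory CC ligands fell into 2 kinds. *Ccl3*, or MIP-1α, a ligand of CCR1, had 0, 0, 0, 1 and 0 counts in the WT libraries and 0, 0, 0, 2 and 0 in the non-lesional libraries. In the lesional libraries it had 39, 0, 2, 120 and 0 counts, which placed lesional 2 and 11 at 17.6 and 60.1 CPM. *Ccl4*, or MIP-1β, an attractant of macrophages and T cells, had 2, 1, 0, 0 and 1 counts in WT libraries, 0, 0, 2, 0 and 2 in non-lesional libraries and 7, 0, 0, 62 and 0 in lesional libraries. Both were low outside these libraries, and the exact permutation p between lesional and WT libraries was 0.167 for *Ccl3* and 0.444 for *Ccl4* (adjusted p = 0.975 for each). With the filter of at least 10 counts edgeR gave log2 fold changes of 6.84 ± 2.23 for *Ccl3* and 4.16 ± 1.79 for *Ccl4* (SE, unadjusted p = 0.0147 and 0.0451, adjusted p = 0.943 for each). Both ligands reached that filter only through lesional 2 and 11, so these p-values are given as descriptions.

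*Ccl6* and *Ccl9*, which share the CCR1 receptor with *Ccl3*, behaved differently. *Ccl6* was at 72.0, 65.1, 58.9, 40.6 and 110.8 CPM in WT libraries and at 70.5, 53.9, 48.0, 79.6 and 78.9 CPM in lesional libraries. All lesional values lay within the WT range, and the log2 fold change was -0.07 ± 0.24 (SE, edgeR unadjusted p = 0.76, adjusted p = 0.986). In non-lesional libraries *Ccl6* was at 64.8, 57.9, 68.4, 51.3 and 88.7 CPM, also within that range. *Ccl9* was at 26.2, 24.9, 16.7, 13.95 and 40.9 CPM in WT libraries, at 18.6, 24.3, 16.1, 17.2 and 23.3 CPM in non-lesional libraries and at 36.6, 23.1, 13.2, 25.04 and 27.3 CPM in lesional libraries. The groups overlapped, with the highest and the second lowest of all values in the WT group. Its log2 fold change of lesional against WT libraries was 0.02 ± 0.31 (SE, edgeR unadjusted p = 0.949, adjusted p = 0.997). *Ccl5*, or RANTES, a T cell product, had 0 to 6 counts per library.

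The promoters of the ligands that stood out in lesional 2 and 11 are shown because they can be set beside those of steadily expressed ligands. Promoters were taken from RefSeq (GRCm38.p6, 250 bases before to 50 after a gene's start), and 23 of the 32 members with at least 10 counts matched by symbol, each by its first listed start. An NF-κB motif (GGG, any 3 bases, then TTCC, on either strand) was found in 7 of the 23 (*Cxcl1*, *Cxcl2*, *Cxcl3*, *Cxcl10*, *Ccl20*, *Ccl1* and *Ccl9*), or 30.4%, and in 5.56% of all 32851 promoters in the table. An interferon-stimulated response motif (GAAA, any 2 bases, then GAAA, on either strand) was found in *Cxcl10* and *Cxcl14*, or 8.7%, and in 3.44% of all promoters. Of the 7 genes with an NF-κB motif, all but *Ccl9* had their highest pair of values in lesional 2 and 11. So did *Cxcl9*, *Ccl3*, *Ccl8*, *Ccl17* and *Ccl28*, whose windows hold no such letters. The same held for 16 of the 32 members and 7.93% of all genes. *Cxcl1*, *Cxcl2*, *Cxcl3* and *Ccl3* reached 10 counts only through these libraries. For *Cxcl1*, *Ccl17* and *Ccl28*, other libraries equalled at least 1 of the pair in raw counts, and only the library scaling set the order. *Cxcl1*, *Cxcl2* and *Cxcl3* arose by duplication and are not independent cases. A match is a description of letters, and binding was not measured. The stretches below run 5′ to 3′ on the strand of the gene and stop before its first annotated base, and capitals mark the NF-κB motif in *Cxcl2* and *Cxcl3*, both motifs in *Cxcl10* and the interferon motif in *Cxcl14*. They lie at chr5:90903649-90903870, plus strand (*Cxcl2*), chr5:90785851-90786100, plus strand (*Cxcl3*), chr5:92348890-92349139, minus strand (*Cxcl10*), chr11:83649379-83649628, minus strand (*Ccl3*), chr11:82114935-82115184, plus strand (*Ccl8*) and chr13:56296552-56296801, minus strand (*Cxcl14*).
Cxcl2: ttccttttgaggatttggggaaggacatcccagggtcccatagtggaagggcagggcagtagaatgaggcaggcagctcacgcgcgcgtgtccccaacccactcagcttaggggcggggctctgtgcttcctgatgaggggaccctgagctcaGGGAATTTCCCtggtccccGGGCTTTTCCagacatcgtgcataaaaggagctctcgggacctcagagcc
Cxcl3: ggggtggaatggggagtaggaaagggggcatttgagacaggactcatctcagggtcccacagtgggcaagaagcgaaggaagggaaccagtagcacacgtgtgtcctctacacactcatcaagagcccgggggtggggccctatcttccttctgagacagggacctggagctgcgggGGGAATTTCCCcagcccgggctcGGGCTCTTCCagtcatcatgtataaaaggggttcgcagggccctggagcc
Cxcl10: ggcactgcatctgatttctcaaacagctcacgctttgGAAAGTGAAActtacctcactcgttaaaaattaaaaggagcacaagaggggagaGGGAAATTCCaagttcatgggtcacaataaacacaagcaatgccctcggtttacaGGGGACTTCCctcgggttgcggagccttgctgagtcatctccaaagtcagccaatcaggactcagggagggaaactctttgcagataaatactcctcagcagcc
Ccl3: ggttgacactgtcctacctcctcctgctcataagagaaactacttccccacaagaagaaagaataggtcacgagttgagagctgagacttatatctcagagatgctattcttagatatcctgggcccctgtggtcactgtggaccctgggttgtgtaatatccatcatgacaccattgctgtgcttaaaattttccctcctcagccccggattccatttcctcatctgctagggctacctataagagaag
Ccl8: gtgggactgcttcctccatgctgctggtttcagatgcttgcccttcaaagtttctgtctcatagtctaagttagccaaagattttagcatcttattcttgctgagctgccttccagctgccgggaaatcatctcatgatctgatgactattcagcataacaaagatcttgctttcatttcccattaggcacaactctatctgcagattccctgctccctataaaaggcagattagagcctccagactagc
Cxcl14: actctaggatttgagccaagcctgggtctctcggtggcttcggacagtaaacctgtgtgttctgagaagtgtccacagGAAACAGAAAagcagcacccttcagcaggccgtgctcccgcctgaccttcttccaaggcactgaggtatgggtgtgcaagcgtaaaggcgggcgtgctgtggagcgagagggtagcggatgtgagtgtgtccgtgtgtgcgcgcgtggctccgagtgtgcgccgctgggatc
In *Cxcl2* and *Cxcl3* the first capital run is a palindrome-like stretch that matches on both strands with a shift of 1 base, followed by a second match. *Cxcl10* holds 2 NF-κB matches, at -159 and -104 from its start, and the interferon motif at -213.

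Ligands linked to type 2 responses and eosinophils bind CCR3, CCR4 or CCR8. *Ccl24*, or eotaxin-2, averaged 5.68 ± 2.16 CPM in WT and 7.64 ± 5.05 CPM in lesional libraries (SD, n = 5). It was the only tested ligand of this group, with a log2 fold change of 0.41 ± 0.41 (SE, edgeR unadjusted p = 0.334, adjusted p = 0.939). *Ccl11*, or eotaxin, had 2 to 22 counts per library, with its highest value in WT 1. *Ccl22*, a dendritic cell and macrophage ligand of CCR4, had 8, 4, 6, 6 and 8 counts in WT libraries and 5, 4, 3, 4 and 2 counts in lesional libraries. The difference of its means on the log2(CPM + 1) scale was -0.44 (exact permutation p = 0.0476, adjusted p = 0.975). *Ccl17*, the other CCR4 ligand, did not share this direction, with 6 and 3 counts in lesional 2 and 11 and 0 to 3 in WT libraries. *Ccl1*, another CCR8 ligand, had 1, 0, 2, 0 and 0 counts in WT and 5, 2, 1, 3 and 1 counts in lesional libraries (exact permutation p = 0.0317, adjusted p = 0.975). These are counts of a few reads.

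The lymphoid tissue ligands guide lymphocytes and dendritic cells to lymph vessels and follicles. *Ccl21a*, made by lymphatic endothelium, was at 19.2, 24.02, 29.2, 6.34 and 28.9 CPM in WT libraries and at 12.2, 14.4, 45.6, 13.02 and 41.9 CPM in lesional libraries. Here lesional 8 and 14 were highest and lesional 2, 5 and 11 were low, unlike the order of the inducible ligands. Its log2 fold change was 0.24 ± 0.47 (SE, edgeR unadjusted p = 0.613, adjusted p = 0.967). *Ccl21b* and *Ccl21c* are near-identical copies listed at 0, so the count of *Ccl21a* is uncertain in its assignment. *Cxcl13*, the B cell attractant, had 0 to 10 counts per library.

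Among the epithelial CC ligands, *Ccl27a* was the only member lower in lesional than in WT libraries at the unadjusted criterion of edgeR's test. CCL27, or CTACK, is made by keratinocytes and binds CCR10 on skin-homing T cells. *Ccl27a* was at 24.6, 23.1, 38.2, 21.6 and 48.5 CPM in the WT libraries. It was at 26.2, 26.0, 16.1, 17.2 and 26.8 CPM in the non-lesional libraries and at 19.0, 14.4, 13.2, 18.5 and 26.3 CPM in the lesional libraries. In lesional skin 4 of 5 libraries lay below all WT libraries, and lesional 2 and 11 were not apart from 5 and 8. The log2 fold change of lesional against WT libraries was -0.78 ± 0.26 (SE, edgeR unadjusted p = 0.0106, adjusted p = 0.926), and the exact permutation p was 0.0397 (adjusted p = 0.975). Without lesional 2 and 11 it was -0.81 ± 0.31 (SE, edgeR unadjusted p = 0.0206, adjusted p = 0.999). For non-lesional against WT libraries it was -0.48 ± 0.23 (SE, edgeR unadjusted p = 0.0535, adjusted p = 1), and for lesional against non-lesional libraries it was -0.29 ± 0.23 (SE, edgeR unadjusted p = 0.223, adjusted p = 0.973). Both comparisons with WT share the WT libraries, of which replicates 7 and 13 were highest. Without WT replicate 13 the value for non-lesional against WT libraries was -0.26 ± 0.21 (SE, edgeR unadjusted p = 0.233, adjusted p = 0.994). *Ccl27b* is a near-identical copy listed at 0 and *Il11ra1* overlaps *Ccl27a* on the opposite strand, so that the assignment of these counts is uncertain.

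*Ccl20*, which attracts CCR6-bearing Th17 cells and dendritic cells, had 14 and 11 counts in lesional 2 and 11. It had 2, 0, 3, 4 and 4 counts in WT libraries and 1, 0 and 0 in lesional 5, 8 and 14. *Ccl25*, a ligand of CCR9, averaged 10.2 ± 2.66 CPM in WT and 9.17 ± 1.21 CPM in lesional libraries (SD, n = 5), with *Elavl1* overlapping it on the opposite strand.

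The steadily expressed ligands differed little between groups, apart from *Cxcl16*. *Cxcl14* was at 134, 113, 124, 118 and 127 CPM in WT libraries, at 126, 119.6, 112, 124 and 139 CPM in non-lesional libraries and at 115, 119.6, 123, 90.2 and 132.5 CPM in lesional libraries. Its log2 fold change was -0.09 ± 0.13 (SE, edgeR unadjusted p = 0.525, adjusted p = 0.957), with lesional 11 the lowest library of the series. *Cxcl12* was at 147, 98.7, 125, 92.6 and 162 CPM in WT libraries, at 121, 84.2, 128, 96.5 and 121 CPM in non-lesional libraries and at 107, 89.3, 103, 117 and 114.5 CPM in lesional libraries. All 3 groups overlapped and WT libraries 1 and 13 were highest. Its log2 fold change of lesional against WT libraries was -0.24 ± 0.17 (SE, edgeR unadjusted p = 0.175, adjusted p = 0.926). *Cx3cl1*, or fractalkine, a membrane-bound ligand of CX3CR1, averaged 7.01 ± 2.27 CPM in WT and 5.22 ± 2.89 CPM in lesional libraries (SD, n = 5).

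*Cxcl16*, a membrane-bound scavenger receptor and ligand of CXCR6, was at 25.8, 29.3, 36.0, 33.8 and 28.9 CPM in WT libraries. It was at 37.3, 21.7, 28.4, 27.6 and 28.5 CPM in non-lesional libraries and at 79.1, 30.3, 27.2, 112 and 36.0 CPM in lesional libraries. Lesional 2 and 11 stood above all other libraries and the rest overlapped. The log2 fold change was 0.89 ± 0.37 against WT (SE, edgeR unadjusted p = 0.0321, adjusted p = 0.926) and 0.99 ± 0.38 against non-lesional libraries (SE, edgeR unadjusted p = 0.0242, adjusted p = 0.973). Without lesional 2 and 11 the first was 0.01 ± 0.19 (SE, edgeR unadjusted p = 0.956, adjusted p = 1) and the second was 0.11 ± 0.20 (SE, edgeR unadjusted p = 0.582, adjusted p = 0.993). Exons of *Zmynd15* overlap *Cxcl16* on the opposite strand. *Xcl1*, the XC ligand of cytotoxic lymphocytes, had 0 to 17 counts per library with no order by group. Its assignment is uncertain, since *Gm20743* overlaps it on the opposite strand.

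Neighbouring chemokine genes did not move together throughout. Chromosome 11 carries 12 members (GRCm38, GENCODE vM21), among them *Ccl9* (83572919 to 83578636, minus strand), *Ccl6* (83587882 to 83593087, minus strand), *Ccl3* (83647844 to 83649355, minus strand) and *Ccl4* (83662584 to 83664683, plus strand). In lesional 11, *Ccl3* and *Ccl4* were above all WT libraries, while *Ccl6* and *Ccl9*, 54.8 kb or more away, were within the WT range. On chromosome 5, which carries 11 members, *Cxcl5*, *Cxcl3*, *Cxcl1* and *Cxcl2* lie between 90759360 and 90905938, and *Cxcl9*, *Cxcl10* and *Cxcl11* lie between 92321347 and 92365485. Of these 7 ligands all but *Cxcl11* had their highest pair of values in lesional 2 and 11. Counting the members with at least 10 counts, this was so for 6 of 9 on chromosome 5 and 7 of 12 on chromosome 11. It was so for 16 of 32 members and 7.93% of all genes. *Cxcl5*, *Cxcl3*, *Cxcl1* and *Cxcl2* on chromosome 5 reached 10 counts only through lesional 2 and 11. The same holds for *Ccl3* and *Ccl4* on chromosome 11, so these tallies are descriptions and not tests.

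**Figure D4:**
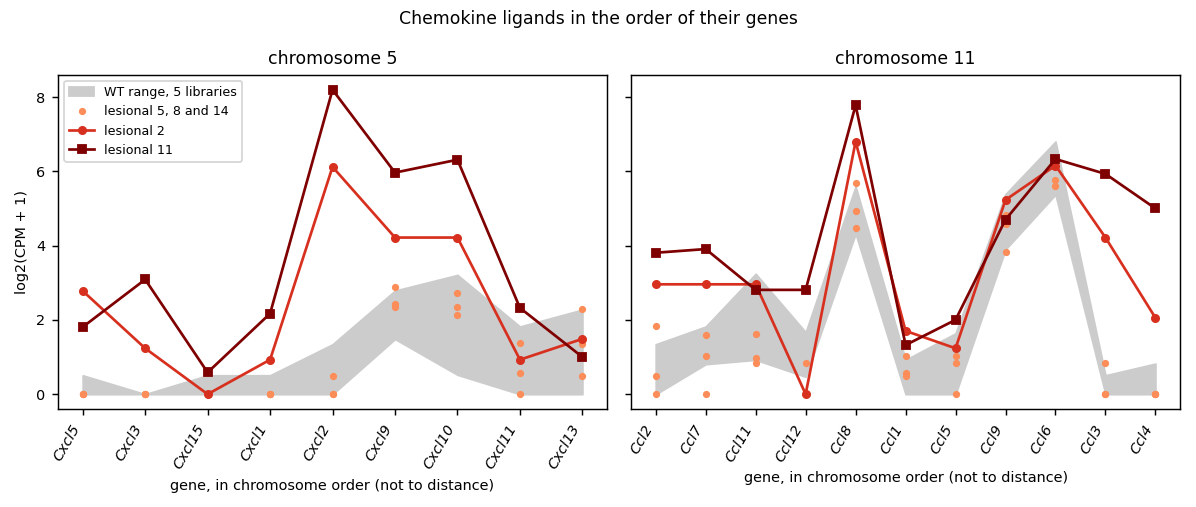
Level of chemokine ligands on chromosomes 5 and 11 in gene order (log2(CPM + 1)), with lesional 2 and 11 as lines, lesional 5, 8 and 14 as points and the range of 5 WT libraries in grey. Both lines leave the grey band at *Cxcl2*, *Cxcl9*, *Cxcl10*, *Ccl8*, *Ccl3* and *Ccl4* and return to it at *Ccl9* and *Ccl6*.

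The makeup of the chemokine ligand counts shifted in lesional 2 and 11. *Cxcl2* took 9.16% of them in lesional 2 (95% Wilson interval 7.87% to 10.6%) and 22.3% in lesional 11 (20.8% to 24%), where it was the most abundant ligand. In WT libraries it took 0.28% or less, and where a library had 0 counts the limit that 3 counts allow was at most 0.321% in WT libraries. The steadily expressed CXC and CX3C ligands took 50.2% to 63.9% of the counts in WT libraries, 41.0% in lesional 2 (38.6% to 43.4%) and 25.0% in lesional 11 (23.3% to 26.7%). Their summed level was 307 and 327.5 CPM in lesional 2 and 11 and 244.5 to 326 CPM in WT libraries. This sum includes *Cxcl16*, which was above the WT range in both libraries. The summed level of all chemokine ligands was 395 to 649 CPM in WT libraries, 749 CPM in lesional 2, 1312 CPM in lesional 11, and 406, 446 and 542 CPM in lesional 5, 8 and 14. Intervals and limits cover counting error only, since PCR copies are not independent molecules.

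**Figure D5:**
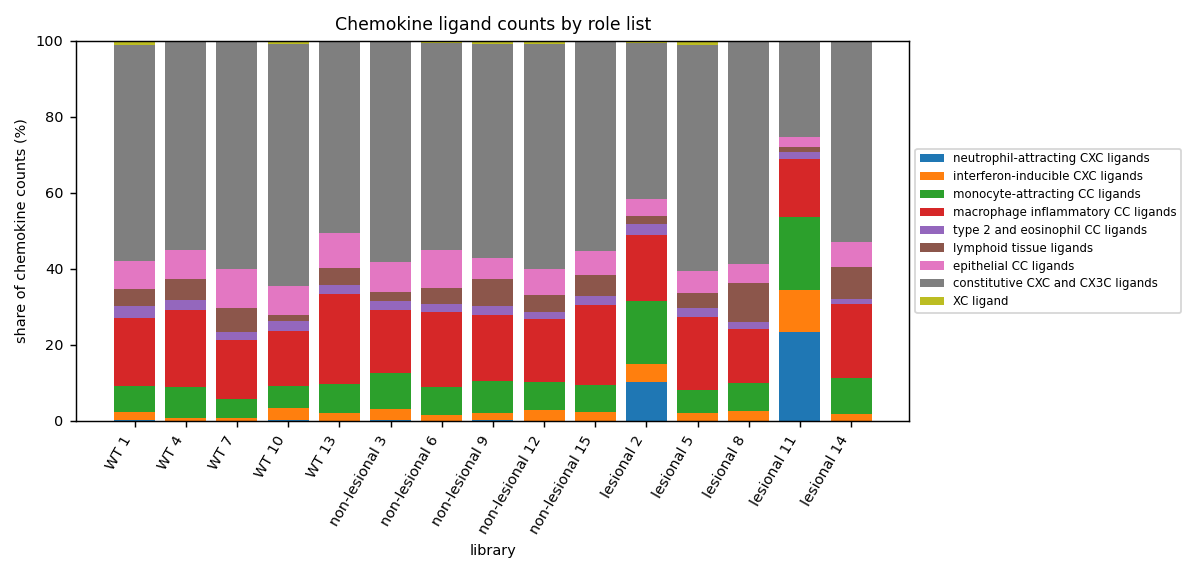
Share of all chemokine ligand counts (percent) that each role group takes in each of the 15 libraries. Steadily expressed ligands take 50.2% to 63.9% in WT libraries, and the neutrophil-attracting group takes 10.2% in lesional 2 and 23.4% in lesional 11 and is barely visible elsewhere.

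Few receptors had enough counts to be tested. Of 20 chemokine receptors, 6 passed the filter in each comparison and 0 met an unadjusted p under 0.05, beside the shares of all genes given above. *Cxcr2*, the receptor of the neutrophil-attracting ligands, was at 4.97 CPM in lesional 2, 5.51 CPM in lesional 11, 1.03 CPM in lesional 5, 0.401 CPM in non-lesional 12 and 0 in all other libraries. *Ccr1*, which binds CCL3, CCL6 and CCL9, was at 4.07 CPM in lesional 2 and at 13.5 CPM in lesional 11, with at most 3.08 CPM in WT libraries. *Ccr10*, the CCL27 receptor, had 9 counts in the series. Atypical receptors take up chemokines without signalling. Of the 4, *Ackr2* alone was lower in lesional than in WT libraries at an unadjusted p under 0.05, where 1.56% of all genes were. The log2 fold change of *Ackr2* was -1.07 ± 0.38 (SE, edgeR unadjusted p = 0.0135, adjusted p = 0.926). *Ackr2* was at 10.4, 4.80, 4.05, 11.4 and 6.76 CPM in WT libraries and at 2.26, 5.13, 3.60, 4.51 and 2.44 CPM in lesional libraries, so that the groups overlapped. The platelet ligand *Pf4*, outside the name rule, differed between the same groups by -0.23 ± 0.21 on the log2 scale (SE, edgeR unadjusted p = 0.292, adjusted p = 0.934).

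Markers of other cells moved with the inducible ligands only in part. The 10 neutrophil markers summed to 7.61 to 17.3 CPM in WT libraries, 2999 CPM in lesional 2 and 5221 CPM in lesional 11, almost all of it *S100a8* and *S100a9*. The defining markers *Ly6g* and *Csf3r* were at 0 in all 15 libraries, and *Camp* and *Ngp* had 1 count each, in lesional 11. A gene at 0 in every library cannot tell absent cells from a transcript that the counting missed. By staining, the study of these mice reported more Gr-1-positive granulocytes in lesional skin. Other markers of the list differed, with *Mmp9* at 19.9 and 91.7 CPM in lesional 2 and 11 and at most 10.4 CPM in WT libraries, and *Retnlg* at 0.452 and 11.5 CPM and *Mmp8* at 0.452 and 2.50 CPM in lesional 2 and 11, each at most 1.31 CPM in WT libraries. *Mmp9*, the 1 marker of this list tested between lesional and WT libraries, had a log2 fold change of 1.88 ± 0.82 (SE, edgeR unadjusted p = 0.0442, adjusted p = 0.926). Non-lesional 3 had a sum of 222 CPM with *Cxcl2* at 0.444 CPM. The 10 macrophage and monocyte markers summed to 377 to 791 CPM in WT libraries and to 676 and 772 CPM in lesional 2 and 11, within the WT range, and 2 of the 9 tested were higher in lesional than in WT libraries at an unadjusted p under 0.05 (*Aif1* and *C1qa*), where 3.24% of all genes were. Of these markers *Aif1* alone did not overlap between lesional and WT libraries, where 0.68% of genes did not. *Cd14*, which was not tested, was at 7.23 and 51.1 CPM in lesional 2 and 11 and at most 3.80 CPM in WT libraries. The T cell markers present summed to 13.5 to 21.6 CPM in WT libraries, 27.1 CPM in lesional 2 and 17.0 CPM in lesional 11. Langerhans and dendritic cell markers ran from 6.82 to 20.5 CPM with the highest sum in lesional 11, mast cell markers from 71.4 to 245 CPM with no order by group, and B cell markers reached at most 1.65 CPM. Fibroblast, skeletal muscle and endothelial markers were lowest in lesional 11, at 16380, 2530 and 145 CPM. Of the 5 endothelial markers, *Prox1* and *Lyve1*, both lymphatic like *Ccl21a*, were lower in lesional than in WT libraries at an unadjusted p under 0.05, where 1.56% of all genes were, with log2 fold changes of -0.63 and -0.57 (edgeR adjusted p = 0.926 for each). Hair follicle markers were highest in WT 1, at 1250 CPM. The part of these cells in the levels of the ligands was not tested.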

How the data were processed

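RNA of 15 mouse skin samples was sequenced as QuantSeq 3′ libraries. The authors trimmed reads with cutadapt 2.10, mapped them with subread-align to GRCm38 plus spike-in sequences, kept primary matches of high quality with samtools 1.7-2 and counted matches per gene over exons with featureCounts 2.0.1, including reads shared between genes. The deposited counts are not normalised, replicates were not pooled, and the 92 spike-in rows sum to 0 and were left out. The deposited CPM are each count over its library total, as was checked, and were not used further. The annotation release and strand setting are not given in the sources used here. Coordinates are from GENCODE vM21, which shares the build.

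Each pair of groups (5 libraries each) was fitted in R 4.3.3 with edgeR 4.0.16 (TMM, filterByExpr, robust quasi-likelihood F-test), with Benjamini-Hochberg adjustment over all genes tested. SE is the absolute log2 fold change over the square root of F. The exact permutation test used 252 regroupings of log2(CPM + 1), with a smallest p of 0.0079, over 20292 genes with at least 10 counts. Scripts were tested on simulated data. Groups followed the labels. Each group is described as 5 mice. Whether lesional and non-lesional libraries share mice is not stated, and the fits treat them as separate. No libraries were duplicates (chi-square per degree of freedom 3.81 to 49.5 within groups).

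The members, role lists and marker lists were chosen with earlier results of these data known. Ligands given in each library were 15: *Ccl3*, *Cxcl3*, *Cxcl9* and *Cxcl10*, studied by qRT-PCR in these mice; the 6 highest in WT; the 4 with the smallest p in each comparison; any without overlap; and the 8 with the largest ratio of highest OTULIN E-KO to highest WT library. Other ligands were named after their values were seen. Alternatives were DESeq2 1.42.0, limma 3.58.1 voomWithQualityWeights, DESeq2 size factors, upper quartile scaling, at least 10 counts or no filter, all 15 libraries in 1 fit, no robustness, another pseudocount, and leaving out each replicate. Leaving out lesional 2 and 11 together was chosen after seeing the data.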

Additional observations from a re-analysis of the deposited data

Results flagged for a closer look

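In 36 sets of 5 values, namely the library totals of each group and each ligand chosen by rule in each group where a library had at least 10 counts of it, the distance of an extreme library from its nearest neighbour was compared with the range of its group by Dixon's criterion, which chance meets in about 1 in 20 sets. In 5 of the 36 the criterion was met, each time by lesional replicate 11. All 5 ligands were chosen partly for a high ratio of the highest OTULIN E-KO library to the highest WT library, so the 1 in 20 is no measure for them and these are descriptions. *Cxcl2* was at 293 CPM there, with 68.7 CPM in the next library. *Cxcl10* was at 78.6 CPM, with 17.6 CPM in the next library. *Cxcl9* was at 61.6 CPM, also with 17.6 CPM in the next library. *Ccl4* was at 31.1 CPM, with 3.16 CPM in the next library. *Cxcl3* was at 7.51 CPM, with 1.36 CPM in the next library. For all 5 ligands the next library was lesional replicate 2.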

How the results depend on the processing

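With 2 libraries high in a group of 5, the number of members with an unadjusted p under 0.05 depended on the filter, the tool and single libraries, while the number with an adjusted p under 0.05 was 0 under every alternative run. Between lesional and WT libraries the count of 5 of 13 (4.81% of all genes) became 8 of 35 with DESeq2 (3.51%), 2 of 13 with voomWithQualityWeights (3.5%), 9 of 32 with at least 10 counts (5.1%, with *Cxcl10* and *Ccl8* no longer among them), 8 of 35 without a filter (4.78%) and 1 of 13 without lesional 2 and 11 (2.94%). The 9 with at least 10 counts included *Cxcl2*, *Cxcl3*, *Cxcl5*, *Ccl3* and *Ccl4*, which reached that filter only through lesional 2 and 11. The median log2 fold change of 0.02 became 0.514, 0.856 and 0.442 with DESeq2, at least 10 counts and no filter, which add low-count members. Between lesional and non-lesional libraries the count of 3 (4.22%) became 7, 0, 6 and 5 in the same order (2.98%, 3.16%, 4.34% and 4.49%) and 0 without lesional 2 and 11 (3.51%), and the median of 0.271 became 0.729, 0.754 and 0.83, and -0.106 without lesional 2 and 11. The 6 with at least 10 counts included *Cxcl2*, *Cxcl3*, *Cxcl5* and *Ccl3*, which reached that filter only through lesional 2 and 11. Between non-lesional and WT libraries 1 member (*Ccl27a*) met the criterion with at least 10 counts (3.53%) or no filter (4.53%). Without a filter 18 genes of the whole table passed an adjusted p of 0.05 in that comparison, and DESeq2 called 14 genes between lesional and WT libraries, none of them a member. Leaving out each replicate gave counts of 1 to 5 for lesional and WT (2.57% to 7.6% of all genes), 0 to 5 for lesional and non-lesional (2.38% to 7.64%) and 0 to 1 for non-lesional and WT libraries (2.37% to 4.46%). It gave 0 to 1 members without overlap in both comparisons with WT (*Ccl28* without non-lesional 12, *Ccl22* without WT 4, *Ccl1* without WT 7 and *Ccl27a* without lesional 14), where 1.03% to 1.46% and 1.13% to 1.92% of all genes had none in the comparisons of non-lesional and of lesional with WT libraries. Small fold changes crossed 0. For non-lesional against WT libraries the log2 fold change ran from -0.22 to 0.158 for *Ccl6* (0.022 with voomWithQualityWeights), -0.051 to 0.292 for *Ccl8*, -0.208 to 0.572 for *Cxcl10* (0.678 with voomWithQualityWeights) and -0.03 to 0.049 for *Cxcl14*. For lesional against WT it ran from -0.215 to 0.155 for *Ccl6* and -0.159 to 0.283 for *Ccl9* (-0.044 with voomWithQualityWeights and -0.007 with upper quartile scaling), and for lesional against non-lesional from -0.135 to 0.007 for *Cxcl12*. The change of *Ccl6* between lesional and non-lesional libraries was 0.00 and its sign was not followed. With voomWithQualityWeights the log2 fold changes of *Cxcl10*, *Cxcl9*, *Ccl8* and *Cxcl16* were 1.71, 0.91, 0.62 and 0.33 for lesional against WT and 1.11, 0.38, 0.45 and 0.50 for lesional against non-lesional libraries. No exact permutation p crossed 0.05 with the other pseudocount. The cause of these differences was not tested. No paired analysis was run, because the labels do not say which libraries share an animal or a litter. At the depth of these libraries, a ligand with 0 counts in a library may lie at up to 1.13 to 1.54 CPM there (3 counts, on the scale of the levels).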

Other observations

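Library 14 of the lesional group differed from lesional 2 and 11 in the ligands of low level. It had 0 counts of *Ccl2*, *Ccl7*, *Ccl20* and *Xcl1*, while *Ccl8* (50.7 CPM) was just above the highest WT value (47.3 CPM) and *Ccl21a* (41.9 CPM) was above the highest WT value (29.2 CPM). In all, 6 of its 32 members were above all WT libraries and 5 were below, with 21.8% and 19.5% of all genes. The same counts were 16 and 2 in lesional 2 (20.8% and 16.9% of all genes), 20 and 2 in lesional 11 (26.2% and 25.8%), 2 and 4 in lesional 5 (16.6% and 13.3%) and 2 and 4 in lesional 8 (13.5% and 12%). In the non-lesional libraries 1 to 6 members were above all WT libraries (14.4% to 16.2% of all genes) and 1 to 4 were below (12.4% to 13.5%).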
